A study of Caenorhabditis elegans with 8 samples.

Results

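The genes described here encode receptors through which the worm Caenorhabditis elegans senses serotonin, dopamine and tyramine. They were listed by gene name under a rule that uses no measured value, although earlier results of these data were known when the group was put together: ser-1, ser-4, ser-5, ser-7 and mod-1 for serotonin, ser-2 for tyramine, and dop-1, dop-2, dop-3 and dop-4 for dopamine. Each of the 10 names had a row of its own among the 46422 gene rows of the count table, and all 10 passed the filter on low counts. Whole larvae were compared between strain HBR227, of genotype aptf-1(gk794), and the wild-type strain N2, with 4 libraries per strain, lettered A to D and labelled as biological replicates. Larvae of both strains had been left without food for 48 hours after egg collection and were in L1 arrest, the halted state of the first larval stage, with no further treatment. The gene aptf-1 encodes an AP-2 transcription factor that the sleep-inducing neuron RIS needs for its function, and the mutant is represented by 1 strain with 1 allele.

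Serotonin, dopamine and tyramine are amines released by a small number of worm neurons, and they set feeding, egg laying and the speed of movement according to food. Most of their receptors couple to G proteins and differ in the pathway they open: some activate Gq or Gs, which promote transmitter release, and others activate Go or Gi, which restrain it. The serotonin receptor gene mod-1 is an exception, since it encodes a chloride channel that serotonin opens directly. Reporter studies in the worm have placed ser-4 in a small set of neurons that includes RIS.

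In these larvae no receptor gene passed the test for a difference between the strains. The 5 serotonin receptor genes, the tyramine receptor gene ser-2 and the dopamine receptor gene dop-1 had means that were between 0.10 and 0.29 higher in HBR227 on the log2 scale. The other 3 dopamine receptor genes, dop-2, dop-3 and dop-4, had log2 fold changes between -0.03 and 0.01. With edgeR's quasi-likelihood test and Benjamini-Hochberg adjustment, 0 of the 10 genes had an adjusted p under 0.05, against 21.5% of all 17522 genes tested (11.2% higher and 10.4% lower). At an unadjusted p under 0.05 there were 3, ser-4, ser-5 and dop-1, against 35.5% of all genes. DESeq2 called 1 gene, dop-1, against 15.9% of the 28169 genes with any count. That wider set holds low-count genes, and genes without an adjusted p count as not called. The limma voom test called the same gene, against 22.2% of 17522 genes. The median log2 fold change was 0.13 over the 10 receptor genes and 0.00 over all genes tested.

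Total counts were 48443631 to 64995146 in the HBR227 libraries and 43552910 to 56418653 in the N2 libraries. HBR227 A stood apart, with a Pearson correlation across genes of 0.972 to 0.973 with the other HBR227 libraries, against 0.994 to 0.995 among HBR227 B, C and D. Of the HBR227 libraries it also had the lowest summed level of 6 body wall muscle markers, at 7735 CPM (the counts-per-million unit). The same held for 5 pharyngeal muscle markers (3431 CPM) and the markers of intestine (1482 CPM), epidermis (712 CPM) and glia (387 CPM). It also held for 5 markers of the RIS neuron (107 CPM) and 10 of all neurons (4073 CPM). HBR227 A had the highest sum of 6 germline markers, at 142 CPM. In the RIS list the neuropeptide gene flp-11 was highest in HBR227 A, at 46.4 CPM, and the other markers were lowest. Of these, unc-25 had 49.9 CPM, against 75.5 to 76.6 CPM in HBR227 B, C and D. In the epidermis list all but ajm-1 were highest in HBR227 A. So were snb-1 and ric-19 (neurons), elt-7 and end-1 (intestine) and lit-1 (glia). The mutated gene itself, aptf-1, had 0.720 to 1.09 CPM in the HBR227 libraries against 3.26 to 4.36 CPM in the N2 libraries. Of 5 genes listed as markers of the RIS neuron, aptf-1 and flp-11 were called lower in HBR227 and the other 3 were not called. Their summed level was 107 to 138 CPM in HBR227 against 232 to 253 CPM in N2. Most of that difference lay in flp-11, with a mean of 44.9 CPM in HBR227 and 153 CPM in N2. In the same order, means were 69.4 and 73.3 CPM for unc-25, 9.08 and 8.46 CPM for unc-47, and 4.42 and 5.33 CPM for lim-6. Whole larvae were counted, so how much of each gene's level came from RIS is not known. Of 10 neuron markers, 2 were called higher in HBR227, egl-3 and egl-21, and none lower, against 21.5% of all genes called. The list median log2 fold change was 0.07. The summed level of egl-3 and egl-21 was 3227 to 3574 CPM in HBR227 against 2583 to 2946 CPM in N2. That of the other 8 was 796 CPM in HBR227 A and 862 to 912 CPM in HBR227 B, C and D, against 797 to 841 CPM in N2. Every listed muscle, intestine, epidermis and germline marker was detected, and of the glia markers mir-228 was at 0 in all libraries. The name mir-228 matched no gene model and its row was not tested, so this 0 is not read as a result on glia. Among these lists, ges-1 (intestine, 0.44 ± 0.10) and lit-1 (glia, 0.27 ± 0.04) were called higher on the log2 scale, and dpy-7 (epidermis, -0.89 ± 0.22), vap-1 (glia, -0.62 ± 0.12) and mls-2 (glia, -0.40 ± 0.11) lower. The part of these cell types in the receptor values was not tested; in whole larvae, fewer cells of a type and less RNA per cell cannot be told apart.

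Without HBR227 A, 5 receptor genes passed the test, all of them higher in HBR227: ser-4, ser-7, mod-1, ser-2 and dop-1. This has to be read against the 44.3% of 17850 genes that passed in that fit, with 21% of all tested genes higher and 23.3% lower. In HBR227 A, 5 of the 10 receptor genes had the lowest level of the 4 HBR227 libraries and 3 had the highest. Leaving out any other single library called no receptor gene. Of these 5 genes, dop-1 was also called with some settings on all 8 libraries, and the other 4 were called in no fit that held HBR227 A. The part of the library's own state in this was not tested.

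**Figure D1:**
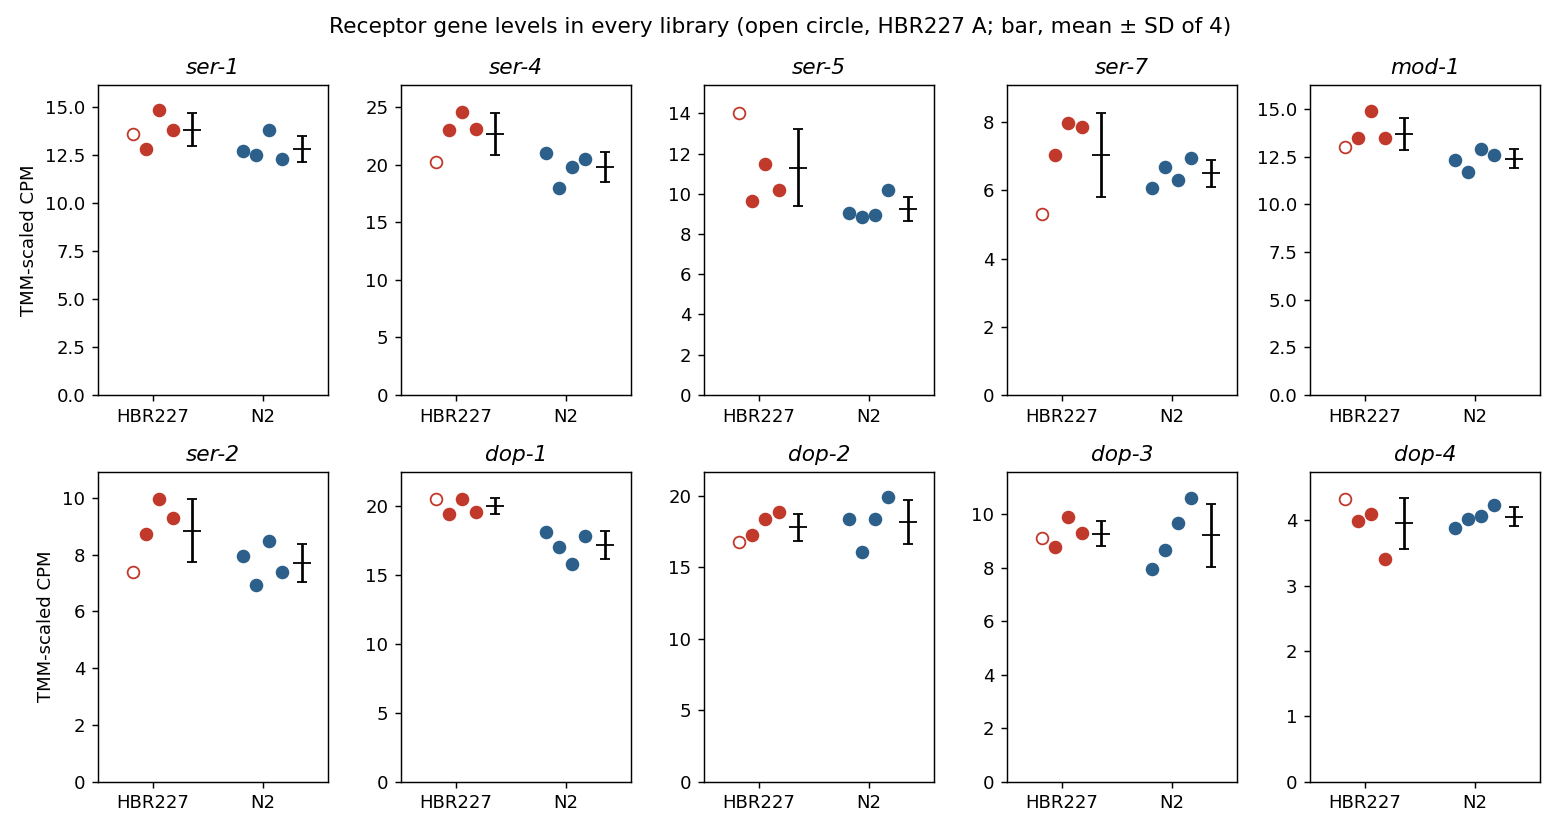
TMM-scaled CPM (vertical axis from 0) of each receptor gene in every library, with HBR227 left of N2, replicates A to D from left to right, and the mean ± SD of 4 libraries beside them. The 4 HBR227 values lie above all N2 values for mod-1 and dop-1, and HBR227 A, the open circle, is the lowest HBR227 library for ser-4, ser-7, mod-1, ser-2 and dop-2 and the highest for ser-5, dop-1 and dop-4.

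Single-gene values are CPM after scaling by TMM, a method that sets library sizes so that most genes do not differ. The Go-coupled serotonin receptor gene ser-4 (WBGene00004779, chromosome III, 1723198 to 1733101, minus strand) had the highest level of the group. Its CPM was 20.2, 23.0, 24.6 and 23.1 in HBR227 A, B, C and D, against 21, 18.0, 19.8 and 20.5 in N2 A, B, C and D. HBR227 B, C and D were above every N2 library, while HBR227 A lay inside the N2 range. Mean CPM was 22.7 ± 1.82 in HBR227 and 19.8 ± 1.32 in N2 (SD, n = 4 each). The log2 fold change was 0.20 ± 0.08 (SE; 95% interval 0.01 to 0.38; edgeR adjusted p = 0.118). Without HBR227 A it was 0.25 ± 0.06 (adjusted p = 0.00313), the smallest adjusted p of any receptor gene in any fit.

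The serotonin receptor gene ser-5 (WBGene00008890, chromosome I, 8384931 to 8387039, plus strand), related to vertebrate receptors that raise cAMP, had the largest difference of the group with all 8 libraries. Its CPM was 14.0, 9.65, 11.5 and 10.2 in HBR227 A to D, against 9.05, 8.84, 8.95 and 10.2 in N2 A to D. HBR227 A was the highest library, HBR227 B lay below N2 D, and the strains overlapped. The log2 fold change was 0.29 ± 0.12 (95% interval 0.02 to 0.57; adjusted p = 0.116), and 0.18 ± 0.08 without HBR227 A (adjusted p = 0.0987), where ser-2, ser-4, ser-7 and dop-1 had larger differences. The gene is thus the one serotonin receptor whose difference was smaller without that library.

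The Gs-coupled receptor gene ser-7 (WBGene00004780, chromosome X, 2673572 to 2682384, plus strand) acts in pharyngeal neurons to drive pumping of the feeding organ. Its CPM was 5.30, 7.05, 7.97 and 7.86 in HBR227 A to D, against 6.06, 6.68, 6.30 and 6.95 in N2 A to D. HBR227 A was the lowest of all 8 libraries, and the other HBR227 libraries were above every N2 library. The log2 fold change was 0.12 ± 0.13 (95% interval -0.18 to 0.42; adjusted p = 0.580) with all libraries and 0.23 ± 0.09 without HBR227 A (adjusted p = 0.0488). Exons of T14G11.5 on the other strand cover 4% of the ser-7 exon length. Whether strand was used in counting is not given in the sources used here, so such reads cannot be told apart.

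The serotonin-gated chloride channel gene mod-1 (WBGene00003386, chromosome V, 8909704 to 8914040, minus strand) takes part in the slowing of movement that worms show on food. Its CPM was 13.0, 13.5, 14.9 and 13.5 in HBR227 A to D, against 12.3, 11.7, 12.9 and 12.6 in N2 A to D. All HBR227 libraries were above all N2 libraries, although HBR227 A and N2 C were close. Such a lack of overlap was found for 28.9% of all genes tested and for 2 of the 10 receptor genes, mod-1 and dop-1. The log2 fold change of mod-1 was 0.15 ± 0.08 (95% interval -0.02 to 0.32; adjusted p = 0.192), and 0.18 ± 0.07 without HBR227 A (adjusted p = 0.0457). Exons of K06C4.20 on the other strand cover 8.53% of its exon length, the largest such overlap among the receptor genes.

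The Gq-coupled receptor gene ser-1 (WBGene00004776, chromosome X, 16579745 to 16587624, plus strand) mediates effects of serotonin on egg laying. Its CPM was 13.6, 12.8, 14.8 and 13.8 in HBR227 A to D, against 12.7, 12.5, 13.8 and 12.3 in N2 A to D. The strains overlapped, with N2 C as high as HBR227 D. The log2 fold change was 0.10 ± 0.08 (95% interval -0.07 to 0.28; adjusted p = 0.394), the smallest of the serotonin receptors, and it was nearly the same without HBR227 A (0.11 ± 0.07, adjusted p = 0.246).

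The tyramine receptor gene ser-2 (WBGene00004777, chromosome X, 15286533 to 15302963, minus strand) encodes a receptor that signals through Go or Gi. Its CPM was 7.38, 8.72, 9.96 and 9.29 in HBR227 A to D, against 7.96, 6.94, 8.48 and 7.40 in N2 A to D. HBR227 B, C and D were above every N2 library, and HBR227 A was below 3 of the 4 N2 libraries. The log2 fold change was 0.20 ± 0.11 (95% interval -0.05 to 0.46; adjusted p = 0.242), and 0.28 ± 0.09 without HBR227 A (adjusted p = 0.0177). The gene has 7 annotated transcripts over 16431 bases, the longest span of the group, and gene counts do not separate them. Exons of C02D4.12 on the other strand cover 6.31% of its exon length.

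Of the dopamine receptors, the D1-like receptor gene dop-1 (WBGene00001052, chromosome X, 4411301 to 4418851, minus strand) stood closest to the threshold. Its CPM was 20.5, 19.4, 20.5 and 19.6 in HBR227 A to D, against 18.1, 17.0, 15.8 and 17.8 in N2 A to D. Every HBR227 library, HBR227 A included, was above every N2 library. Mean CPM was 20.0 ± 0.592 in HBR227 and 17.2 ± 1.01 in N2 (SD, n = 4 each). The log2 fold change was 0.22 ± 0.07 (95% interval 0.06 to 0.38; adjusted p = 0.0514). Without HBR227 A it was 0.21 ± 0.06 (adjusted p = 0.0118). Adjusted p fell under 0.05 with 5 of 9 other scalings, filters or tests applied to all 8 libraries, where log2 fold changes were 0.11 to 0.23. Over these and the fits that leave out 1 library, adjusted p was 0.0118 to 0.363.

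The D2-like receptors, encoded by dop-2 and dop-3, act through Go or Gi, and dop-3 opposes dop-1 in the control of movement by motor neurons. The gene dop-2 (WBGene00001053, chromosome V, 9608556 to 9614940, plus strand), which dopamine neurons themselves also use, had 16.8, 17.3, 18.4 and 18.9 CPM in HBR227 A to D, against 18.4, 16.1, 18.4 and 19.9 CPM in N2 A to D. The gene dop-3 (WBGene00020506, chromosome X, 6564175 to 6569724, minus strand) had 9.10, 8.78, 9.90 and 9.29 CPM in HBR227 A to D, against 7.94, 8.65, 9.67 and 10.6 CPM in N2 A to D. For both genes the N2 libraries reached lower and higher than the HBR227 libraries. Log2 fold changes were -0.03 ± 0.08 for dop-2 (95% interval -0.21 to 0.16; adjusted p = 0.842) and 0.01 ± 0.11 for dop-3 (95% interval -0.23 to 0.24; adjusted p = 0.978). As folds of HBR227 over N2, these intervals run from 0.862 to 1.11 for dop-2 and from 0.852 to 1.18 for dop-3.

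The gene dop-4 (WBGene00016872, chromosome X, 1295253 to 1298830, plus strand), which encodes a D1-like receptor of a type known from invertebrates, was the lowest of the group. Its CPM was 4.32, 3.98, 4.10 and 3.40 in HBR227 A to D, against 3.88, 4.02, 4.06 and 4.23 in N2 A to D. The N2 libraries lay inside the range of the HBR227 libraries, whose lowest was HBR227 D. The log2 fold change was -0.03 ± 0.11 (95% interval -0.28 to 0.21; adjusted p = 0.853).

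**Figure D2:**
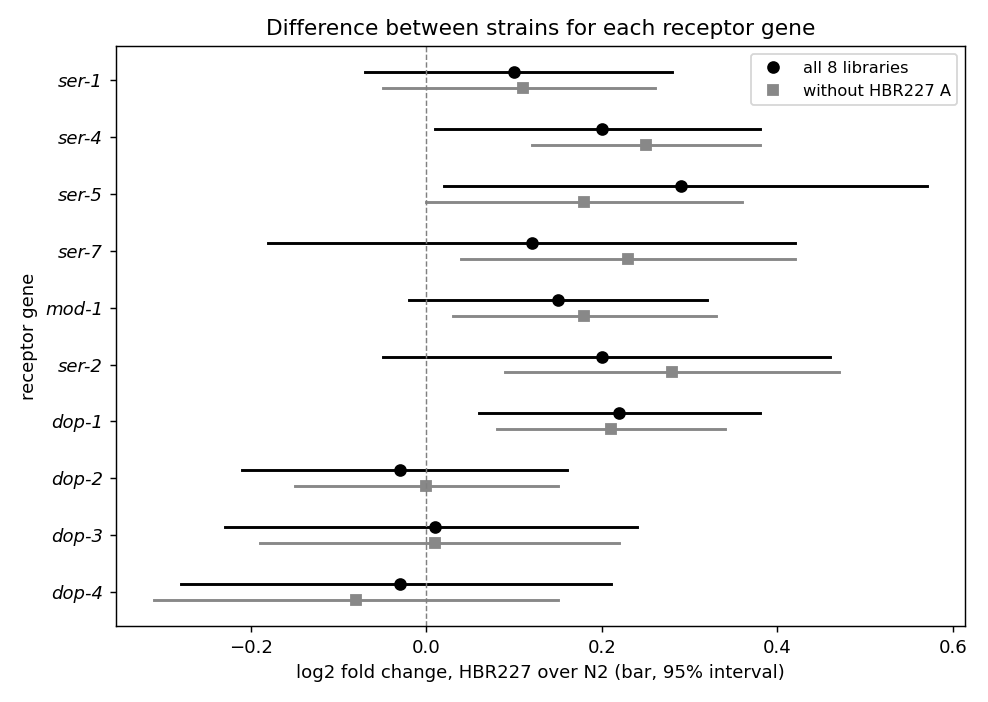
Log2 fold change of HBR227 over N2 for each receptor gene (horizontal axis), with its 95% interval, from all 8 libraries (circles) and without HBR227 A (squares). The intervals of ser-4, ser-5 and dop-1 lie above 0 with all libraries before adjustment for the number of genes tested. Those of ser-1, dop-2, dop-3 and dop-4 span 0 in both fits.

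To compare dop-1 with the other dopamine receptor genes without any scaling of libraries, ratios of raw counts were taken within each library, a comparison chosen after the values were seen. The ratio of dop-1 to dop-4 was 4.75, 4.86, 5 and 5.77 in HBR227 A to D, against 4.67, 4.24, 3.90 and 4.20 in N2 A to D. All 4 HBR227 ratios were above all 4 N2 ratios, by 0.26 on the log2 scale in the mean. HBR227 A and N2 A were close, and counting alone gave dop-4 a relative error of 6.93% in HBR227 and 6.89% in N2. The ratio of dop-1 to dop-2 was 1.12 ± 0.0743 in HBR227 and 0.948 ± 0.0892 in N2 (SD, n = 4 each), and its libraries overlapped. The ratio of dop-1 to dop-3 was 2.16 ± 0.0850 in HBR227 and 1.89 ± 0.300 in N2, with N2 A above all HBR227 libraries. The ratios share the counts of dop-1, which was picked for its values, so they are given without a test.

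The receptor genes were of middle abundance, between percentile 35.5 and percentile 65.3 of all genes tested when ranked by average CPM. Levels of different genes were compared as TMM-scaled CPM per kilobase of exon. On that scale ser-4 stood at 15 ± 1.20 in HBR227 and 13.1 ± 0.869 in N2 (SD, n = 4 each), above all others in every library. dop-1 followed at 8.31 ± 0.246 in HBR227 and 7.14 ± 0.420 in N2, and mod-1 at 7.81 ± 0.473 in HBR227 and 7.04 ± 0.285 in N2. In HBR227 the order went on with ser-5 (6.98 ± 1.18), dop-2 (6.57 ± 0.353) and ser-1 (6.22 ± 0.384), and in N2 with dop-2 (6.70 ± 0.572), ser-1 (5.79 ± 0.306) and ser-5 (5.69 ± 0.376). In both strains dop-3, ser-7 and ser-2 came next, and dop-4 was last, at 2.26 ± 0.224 in HBR227 and 2.31 ± 0.0827 in N2. The highest mean was 6.64 times the lowest in HBR227 and 5.67 times in N2.

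Only 3 steps of this order were clear in the 4 libraries of each strain. The values per kilobase did not overlap between ser-4 and dop-1, between the sixth and the seventh gene (ser-1 and dop-3 in HBR227, ser-5 and dop-3 in N2), or between ser-2 and dop-4. All other neighbours overlapped. The place of ser-5, above dop-2 and ser-1 in HBR227 and below both in N2, is therefore not a clear difference of order. With the longest transcript in place of all exons as the length, ser-2 moved to 4.23 in HBR227 and 3.69 in N2, and ser-7 to 4.22 in HBR227 and 3.89 in N2, so that ser-2 stood just above ser-7 in HBR227.

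**Figure D3:**
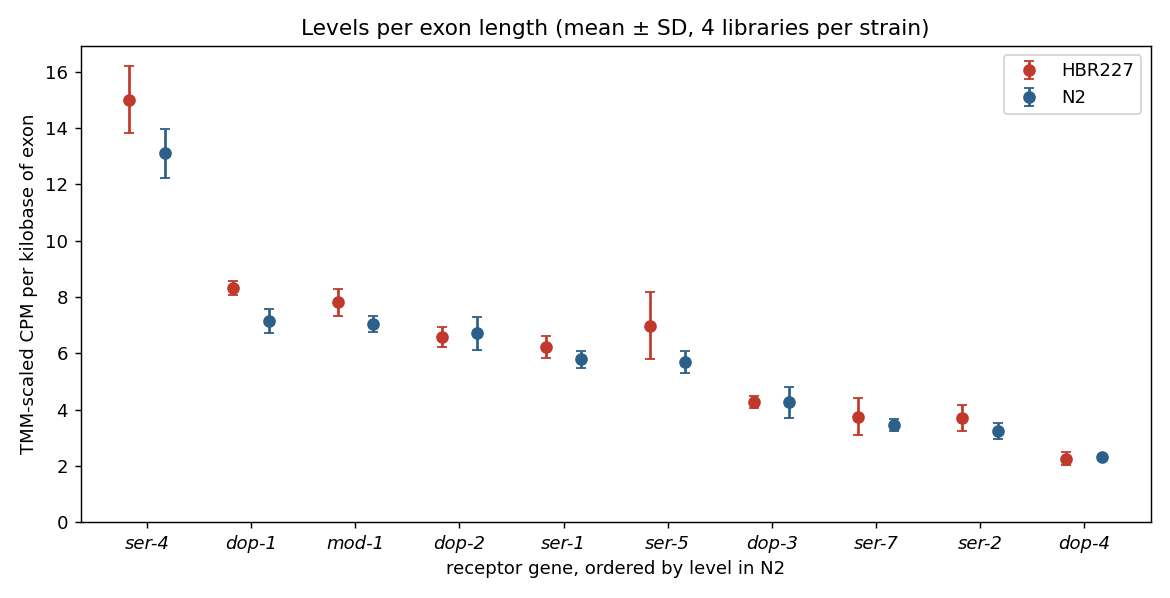
Level of each receptor gene as TMM-scaled CPM per kilobase of exon (vertical axis from 0), mean ± SD of 4 libraries, HBR227 left of N2, with genes ordered by their N2 level. ser-4 lies apart at the top, at 15 in HBR227 and 13.1 in N2, and dop-4 at the bottom, at 2.26 in HBR227 and 2.31 in N2.

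Counts behind these values were moderate, from 171 for dop-4 in HBR227 D to 1474 for ser-4 in HBR227 B. Counting alone gives a relative error of 6.93% in HBR227 and 6.89% in N2 for dop-4, and 2.88% in HBR227 and 3.12% in N2 for ser-4. The spread between libraries, as the coefficient of variation, ran from 2.96% for dop-1 to 17.5% for ser-7, both in HBR227. That of dop-1 in HBR227 lay below its counting error of 3.08%. That of dop-4 in N2, at 3.58%, also lay below its counting error. For ser-5 and ser-7 the spread was 16.9% and 17.5% in HBR227, against 6.61% and 6.06% in N2. Of the 10 genes, 6 lie on chromosome X (ser-1, ser-2, ser-7, dop-1, dop-3 and dop-4), where 14.9% of the tested genes with a chromosome lie. The median log2 fold change of the X-linked genes tested was 0.01, and 22.3% of them were called.

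The size of the receptor differences depended on how libraries were scaled. With total counts alone the receptor median was 0.03 and that of all genes was -0.11, and 27.4% of the calls were higher, against 51.9% with TMM. When libraries were scaled instead to the 10 neuron markers, an alternative chosen after the values were seen, the receptor median was 0.04, with dop-1 at 0.13 ± 0.09 (adjusted p = 0.363) and ser-4 at 0.10 ± 0.08 (adjusted p = 0.391). The median of all genes was then -0.10 and 29.2% of the calls were higher. These 10 markers include egl-3 and egl-21, which were themselves called higher in HBR227 with TMM (0.26 ± 0.06 and 0.27 ± 0.06). Relative to the all-gene median, the receptor median was 0.14 higher with TMM, 0.14 with total counts and 0.13 with the neuron markers. With TMM it was 0.19 higher without HBR227 A and 0.09 higher without HBR227 C.

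Among 11 other genes for amine receptors, dop-6 rose, and the other 10 did not pass in either direction, against 21.5% of all genes called. The list was dop-5 and dop-6, the octopamine receptor genes octr-1, ser-3 and ser-6, the tyramine receptor genes tyra-2, tyra-3 and lgc-55, and the amine-gated channel genes lgc-40, lgc-50 and lgc-53. dop-6, named for its likeness to dopamine receptors, had 70.5, 71.3, 70.9 and 73.7 CPM in HBR227 A to D, against 59.3, 57.2, 60.4 and 62.3 CPM in N2 A to D. All HBR227 libraries were above all N2 libraries, with a log2 fold change of 0.26 ± 0.05 (adjusted p = 0.00472). Scaled to neuron markers it was 0.17 ± 0.06 (adjusted p = 0.0755). The list median was 0.16, and without HBR227 A 5 members were higher and none lower, with a median of 0.27, where 44.3% of all genes were called. Of the others, ser-6 (0.34 ± 0.11, adjusted p = 0.0501) and the serotonin-gated channel gene lgc-50 (0.30 ± 0.09, adjusted p = 0.0510), both picked for their values, were nearest to the threshold.

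Genes that make and carry the amines gave 1 rise and no fall among 10, against 21.5% of all genes called. The rise was in mod-5, the serotonin reuptake transporter gene, with 11.7, 15.4, 19.1 and 16 CPM in HBR227 A to D, against 10.6, 11.1, 11.7 and 9.93 CPM in N2 A to D. All HBR227 libraries were above all N2 libraries, HBR227 A only just above N2 C, and the log2 fold change was 0.52 ± 0.14 (adjusted p = 0.0222). It did not pass without HBR227 C (0.41 ± 0.12, adjusted p = 0.0596), without HBR227 D (adjusted p = 0.0570), without any one of N2 A, B and D (adjusted p = 0.0622, 0.0611 and 0.0684), or with total counts alone (adjusted p = 0.0555). Over all its alternatives adjusted p was 1.1e-05 to 0.0684. The list median was -0.09, and without HBR227 A it was 0.03 with 2 higher and 2 lower, against 44.3% of all genes called in that fit.

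Of the genes that did not pass, those for the rate-limiting enzymes of serotonin and dopamine synthesis are described here, a choice made with their values known. Their log2 fold changes were the highest and the lowest of the 10 genes in the list. For comparison, 28.9% of all genes tested had no overlap between the strains, and 44.3% of all genes passed without HBR227 A. tph-1, for serotonin, had 2.99, 6.20, 6.11 and 6.60 CPM in HBR227 A to D, against 4.19, 3.16, 4.08 and 2.91 CPM in N2 A to D. HBR227 A lay among the N2 libraries and the other HBR227 libraries were above them (0.62 ± 0.24, adjusted p = 0.0937; without HBR227 A 0.82 ± 0.12, adjusted p = 4.8e-05). cat-2, for dopamine, had 1.85, 5.36, 4.43 and 4.65 CPM in HBR227 A to D, against 6.20, 5.60, 6.36 and 6.02 CPM in N2 A to D. Every HBR227 library was below every N2 library, HBR227 A by far the most (-0.56 ± 0.26, adjusted p = 0.156; without HBR227 A -0.32 ± 0.10, adjusted p = 0.0163).

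Downstream of the receptors, 2 of 15 G protein signalling genes rose and none fell, with a median log2 fold change of 0.08. They were egl-8, a phospholipase C gene that acts after Gq (0.30 ± 0.05, adjusted p = 0.00362), and pde-4, a cAMP phosphodiesterase gene (0.40 ± 0.06, adjusted p = 0.00168). Both passed in every alternative run. The G alpha genes that the receptors use did not pass: goa-1 (Go) at 0.05 ± 0.04, egl-30 (Gq) at -0.01 ± 0.05 and gsa-1 (Gs) at 0.03 ± 0.08. Nearest to the threshold among the uncalled genes of the list, and picked for their values, were crh-1 and gpc-2. Their log2 fold changes were 0.25 ± 0.08 for crh-1 (edgeR adjusted p = 0.0527) and -0.27 ± 0.09 for gpc-2 (adjusted p = 0.0532). Without HBR227 A, 8 of the list were higher and 1 lower, against 44.3% of all genes called. Of 9 genes for receptor desensitisation and for RGS proteins, which shorten G protein signals, 2 rose and none fell, with a median of 0.11. They were rgs-2 (0.31 ± 0.06, adjusted p = 0.00681; 0.102 when scaled to neuron markers) and rgs-1 (0.24 ± 0.07, adjusted p = 0.0258). The rgs-1 call was lost without HBR227 C, HBR227 D or N2 C (adjusted p = 0.0615, 0.0655 and 0.0659), with the replicate block (0.0557), with total counts alone (0.150) and with neuron-marker scaling (0.267). Without HBR227 A, 4 of the 9 were higher and none lower. The shares called in both lists have to be read against 21.5% of all genes with all 8 libraries and 44.3% without HBR227 A.

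**Figure D4:**
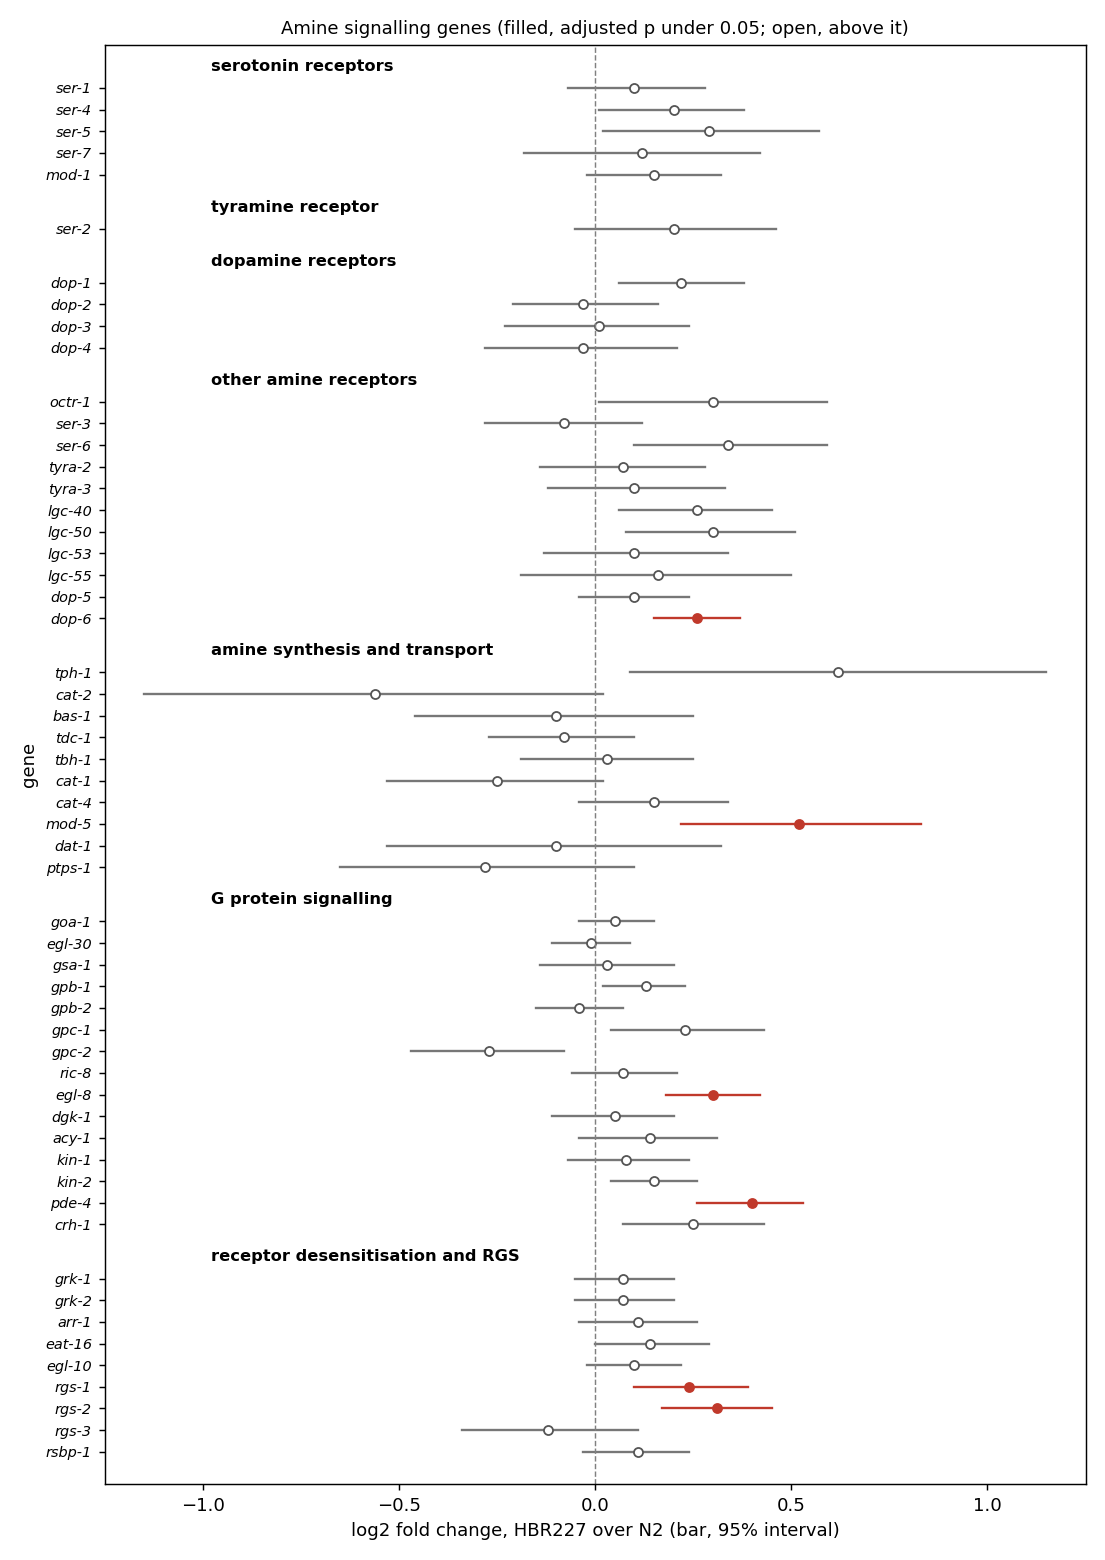
Log2 fold change of HBR227 over N2 with its 95% interval (horizontal axis) for the receptor genes and for the other genes of amine signalling, by list. Filled points passed an adjusted p of 0.05, and these are dop-6, mod-5, egl-8, pde-4, rgs-1 and rgs-2, all higher in HBR227, while no gene of the first 3 lists is filled.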

How the data were processed

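The authors deposited raw counts per gene for 8 libraries of total RNA, with no scaling. Per the submitters' processing notes, which state no roles, Bowtie 0.12.2 and the builds WBcel235 and mm8 were involved. The sources used here name no counting program, annotation, filter or use of strand. Of 46433 rows, 11 whose names had become dates (0.0333% of counts) were left out. Coordinates, exon lengths and overlaps come from Ensembl release 115 gene models of WBcel235, matched by symbol, and are 1-based; how reads shared by several genes were counted is likewise not given.

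The test was edgeR 4.0.16 in R 4.3.3 (TMM, filterByExpr with a minimum count of 10, robust quasi-likelihood test, no covariate), with Benjamini-Hochberg adjustment over all 17522 genes tested. Fold changes are HBR227 over N2, and standard errors derive from the F statistic. The replicates are labelled as biological, but no label says that they were grown separately. The p-values cover the variation among these libraries, and how much of it is technical is not known. No pair of libraries of a strain was a repeat (chi-square per degree of freedom at least 4.68). Alternatives were DESeq2 size factors, upper quartile scaling, total counts alone, neuron-marker scaling, DESeq2 1.42.0, limma 3.58.1 voom, no filter, a CPM of at least 1 in 4 libraries, a block on the replicate letter, and omission of each library in turn.

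The members and lists were chosen with earlier results of these data known. All members are named, with up to 4 called genes of each other list; genes named for a pattern like that of a called member would have followed, but no member was called. The scripts were tested on simulated data. Figures were drawn with matplotlib 3.10.9 in Python 3.11.15.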

Additional observations from a re-analysis of the deposited data

Results flagged for a closer look

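In each strain the level of each receptor gene was examined for 1 library far from the other 3, in 20 groups of 4 libraries in all, and chance alone marks about 1 group in 20. The one group marked was ser-5 in N2, where N2 D had 10.2 CPM and N2 A, B and C had 9.05, 8.84 and 8.95 CPM. Its gap to the nearest library was 0.838 of the range of the group, above Dixon's 95% limit for 4 values. N2 D is the library in which ser-5 reached the level of HBR227 D, also 10.2 CPM.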

How the results depend on the processing

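The count of receptor genes called was 0 with edgeR and TMM and 1, dop-1, with DESeq2 size factors, upper quartile scaling, DESeq2, limma voom or the CPM filter (1 or more in 4 libraries). Leaving out 1 library gave 0 to 5 receptor genes, 5 without HBR227 A. The count over all genes was 3774 and ran from 2423 (without HBR227 C) to 7906 (without HBR227 A) with 1 library left out. Signs turned for values near 0: ser-1 was 0.00 with total counts alone, and dop-3 was -0.10 with total counts alone, 0.00 with the CPM filter and -0.08 with neuron-marker scaling. With 1 library left out, dop-2 ran from -0.07 to 0.02, dop-3 from -0.05 to 0.09 and dop-4 from -0.08 to 0.03. Of 170 values of the receptor genes under these alternatives, 151 kept their direction and side of the threshold, 10 newly passed and 9 turned sign; the cause was not tested. With the replicate letter as a block, 3065 genes and 0 receptor genes were called. The letters were not shown to pair the libraries, since deviations of same-lettered libraries correlated at -0.01, 0.14, 0.03 and -0.01 for A, B, C and D, and 1 of the 4 HBR227 libraries and 2 of the 4 N2 libraries correlated best with their own letter. Depth was 171 to 1474 counts per receptor gene and library, which by counting alone gives an error of 2.88% to 6.93% at the mean count of a gene in a strain.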
